A study of Mus musculus with 15 samples.

Results

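Thy1, Htr7, Vdr, Lad1, Pros1, Aire and Lin28a are 7 genes, of 54838 in the count table, that are better known from other tissues than from mature B cells. They were picked because their counts were described as clearly present after 5 days of culture and near 0 in naive B cells, so cultured and naive levels are given for them as a description, with no test. The choice set no numeric threshold. Aire does not meet the description: it had 555 counts over the naive libraries and was high in 3 of the 9 cultured libraries. All 7 gene IDs were found in the table.

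RNA sequencing covered 15 libraries of splenic B cells from wild-type (WT) mice. Spleens came from 3-month-old males on day 9 after injection of SRBC (sheep red blood cells), which raise germinal centres. B220-positive cells were enriched by magnetic removal of the others and then sorted into germinal centre (GC) and naive B cells. The activated groups hold naive B cells kept for 5 days in embryonic stem cell medium (KO-DMEM), with fresh medium and cytokines at day 0 and day 3. Their titles name the stimulus: CD40 (anti-CD40 at 5 µg/ml with mouse IL-4 at 80 ng/ml), CpG (2 µM) or LPS (25 µg/ml). From the labels it is unclear if the CpG and LPS cultures received IL-4 as well. The GC and naive groups are sorted cells whose titles name no culture. The design text can also be read as placing sorted GC cells in culture, and the labels do not settle whether the GC libraries come from freshly sorted cells. Each of the 5 groups has 3 libraries, lettered A, B and C. The design text speaks of 3 x 2 mice and does not say whether a letter stands for 1 mouse or a pool, so p-values measure the spread between these libraries, which may be technical.

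Library totals ran from 25397624 to 36272197 counts. Levels are in CPM, a read count normalised to library size, and the sizes carry edgeR's TMM scaling factors. At this depth 3 counts in 1 library correspond to 0.0819 to 0.122 CPM. Naive A and naive B stood apart in low counts: 754 and 592 genes had 1 to 19 counts there, against 5772 in naive C and 3094 to 6103 in the activated and GC libraries. A count of 0 in naive A or naive B is therefore not comparable with a 0 in naive C. B cell markers were present in every library, with 8 of 8 markers counted and a summed level of 4932 to 6231 CPM in activated, 8632 to 9581 CPM in GC and 11095 to 14065 CPM in naive libraries. The 8 germinal centre markers summed to 526 to 1107 CPM in activated, 2837 to 3128 CPM in GC and 82.6 to 132 CPM in naive libraries. The 8 plasma cell markers summed to 2109 to 6799 CPM in activated, 2022 to 2542 CPM in GC and 508 to 541 CPM in naive libraries. In activated libraries the plasma cell sum was 3105 to 3224 CPM in letter A, 2109 to 2251 CPM in B and 4943 to 6799 CPM in C. The germinal centre sum there was 1017 to 1107 CPM in letter A, with B (611 to 704 CPM) and C (526 to 652 CPM) overlapping. In bulk RNA, fewer cells expressing a gene and less RNA per cell cannot be told apart.

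As background, the 7 genes act at several places in a cell. Thy1 is a small glycoprotein held at the cell surface by a lipid anchor and marks T cells in the mouse, where IL-4 is known to induce it on B cells. Htr7 is a serotonin receptor that signals through the stimulatory G protein to cyclic AMP. Pros1 encodes protein S, a secreted vitamin K-dependent cofactor of the anticoagulant protein C and a ligand of the TAM receptors Tyro3, Axl and Mertk. Lad1 encodes ladinin, described in epithelia at their anchoring to the basement membrane. Vdr is the nuclear receptor of active vitamin D and binds DNA with a retinoid X receptor. Aire drives the expression of tissue-restricted antigens in medullary thymic epithelium and is also found in thymic B cells. Lin28a binds RNA and blocks the maturation of let-7 microRNAs in early embryonic cells.

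RefSeq promoter windows were found for 6 of the 7 members, and Thy1 had none. The upstream 250 bases are shown for Vdr, Pros1, Lin28a and Aire, whose windows held a match to a motif searched. Those of Htr7 and Lad1 held no match and are not shown. The counts of Vdr, Pros1, Lin28a, Htr7 and Lad1 shared the same division between activated libraries and the others, and those of Aire did not. Sequences are 5′ to 3′ on the gene's strand (build GRCm38.p6) and end at the base before the RefSeq start. The windows shown, in the order of the sequences, lie at chr15:97908297-97908546 (minus strand), chr16:62854057-62854306 (plus strand), chr4:134018817-134019066 (minus strand) and chr10:78043611-78043860 (minus strand). Capitals mark matches to the motifs named after the sequences.
Vdr: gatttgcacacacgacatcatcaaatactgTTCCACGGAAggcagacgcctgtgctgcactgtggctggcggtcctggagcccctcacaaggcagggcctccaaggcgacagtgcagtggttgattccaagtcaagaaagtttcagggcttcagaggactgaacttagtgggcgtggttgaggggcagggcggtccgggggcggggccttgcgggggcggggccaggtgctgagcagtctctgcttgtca
Pros1: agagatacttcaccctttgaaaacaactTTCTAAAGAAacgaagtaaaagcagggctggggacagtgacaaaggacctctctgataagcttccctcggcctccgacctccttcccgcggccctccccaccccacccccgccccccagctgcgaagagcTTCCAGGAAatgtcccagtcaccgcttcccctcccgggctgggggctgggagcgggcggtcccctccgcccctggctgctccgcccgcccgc
Lin28a: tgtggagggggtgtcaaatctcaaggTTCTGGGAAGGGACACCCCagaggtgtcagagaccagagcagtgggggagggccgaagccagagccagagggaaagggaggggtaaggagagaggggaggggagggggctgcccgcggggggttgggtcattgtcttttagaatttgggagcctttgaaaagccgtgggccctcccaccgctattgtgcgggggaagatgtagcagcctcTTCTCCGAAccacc
Aire: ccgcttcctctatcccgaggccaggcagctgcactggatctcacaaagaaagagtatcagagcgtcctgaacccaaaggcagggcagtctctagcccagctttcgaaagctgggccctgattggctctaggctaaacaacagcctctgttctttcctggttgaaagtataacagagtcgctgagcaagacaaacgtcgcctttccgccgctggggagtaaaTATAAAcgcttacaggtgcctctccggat

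Motifs were searched on both strands, and each share is of 32851 mouse promoter windows of 250 bases. The STAT6 motif TTCNNNNGAA was in the Vdr window at bases -220 to -211 from the start and in the Pros1 window at -222 to -213, and 5.85% of windows held it. The STAT5 motif TTCNNNGAA was in the Pros1 window at -92 to -84 and in the Lin28a window at -224 to -216 and at -14 to -6, and 7.02% of windows held it. A match to the NF-kB consensus abutted the first of those Lin28a sites, at -215 to -206, and 7.25% of windows held one. The TATA box letters TATAAA were in the Aire window at -29 to -24, and 12.4% of windows held them. Neither the AP-1 motif TGANTCA (6.75% of windows) nor the E-box CACGTG (6.02%) was in any of the 6 member windows, and the Htr7 and Lad1 windows matched none of the 6 motifs. The 250 bases before the Htr7 start were 82% G and C, against a median of 52.4% over all windows. A match is a run of letters and not a shown binding site.

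Thy1 was the most abundant member per length of transcript. Thy1 (ENSMUSG00000032011, chromosome 9, 44043384 to 44048579 on the plus strand of GRCm38) had 390, 787 and 402 CPM in CD40 libraries A, B and C. It had 424, 795 and 449 CPM in the CpG libraries and 406, 802 and 402 CPM in the LPS libraries. It was counted in 1 of 3 GC libraries, at 0.382 CPM, and in 1 of 3 naive libraries, at 0.277 CPM. The lowest activated library thus lay 3 orders of magnitude above the highest GC or naive one, and the groups did not overlap. Mean levels were 5690, 6008 and 5803 times the naive mean with CD40, CpG and LPS, where the naive mean rests on 8 counts in 1 library.

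T cell markers went in both directions. The summed level of 17 T cell markers was 56.3 to 81.2 CPM in activated, 266 to 313 CPM in GC and 256 to 365 CPM in naive libraries. Most of that sum came from the adhesion molecule Cd2, at 9.30 to 27.5 CPM in activated, 101 to 136 CPM in GC and 170 to 289 CPM in naive libraries, and from the kinase Lck, at 23.8 to 41.9, 160 to 173 and 56.3 to 70.8 CPM. Tcf7, a transcription factor of T cells, had 4.18 to 22.4 CPM in activated, 0 to 0.218 CPM in GC and 0.139 to 3.63 CPM in naive libraries, with every activated library above every GC and naive one. Of them 16, 14 and 14 had a count in activated, GC and naive libraries, and Bcl11b was at 0 throughout. Cd3e, a chain of the T cell receptor complex, reached 0.621 CPM in the highest activated library and was at 0 in GC and naive libraries. Cd3g went the other way, with a naive mean of 1.91 CPM above its means of 0.472 (CD40), 0.235 (CpG) and 0.454 CPM (LPS). Trac averaged 0.660 CPM in naive libraries, all from naive A, and 0.251 (CD40), 0.576 (CpG) and 0.958 CPM (LPS) in cultures. Trbc2 had 3.16 and 0.312 CPM in naive A and C, 0 in naive B, and at most 0.204 CPM in activated libraries. Cd3e, Cd3g and Trac did not pass the edgeR test against naive with any stimulus. Cd8a, a co-receptor of cytotoxic T cells, had 0.683 to 5.68 CPM in activated libraries and 0 in all GC and naive ones. What T cells add to the Thy1 level was not tested.

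Htr7 was counted in the activated libraries and in no other. Htr7 (ENSMUSG00000024798, chromosome 19, 35958734 to 36057507, minus strand) had 176, 166 and 112 CPM in CD40 libraries A, B and C. The CpG libraries had 188, 155 and 124 CPM and the LPS libraries 202, 164 and 149 CPM. The GC and naive libraries had 0 counts in all 6. With CD40, CpG and LPS, means were 4772, 4907 and 5419 times a floor of 3 counts over the naive group. That floor uses the depth of naive A and B, where a 0 is not comparable with one in naive C. These values are therefore not strict bounds. In naive C alone, 3 counts correspond to 0.104 CPM.

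Pros1, the secreted ligand, was the steadiest member across the cultures. Pros1 (ENSMUSG00000022912, chromosome 16, 62854307 to 62929346, plus strand) had 134, 153 and 134 CPM in CD40 libraries A, B and C. It had 136, 149 and 144 CPM in the CpG libraries and 132, 147 and 130 CPM in the LPS libraries. It had 0 counts in the 3 GC libraries, and 8 counts in naive C with 0 in naive A and B. The highest of the 9 activated libraries was 1.18 times the lowest. Markers of megakaryocytes and platelets, which carry protein S, summed to 174 to 210 CPM in activated, 74.6 to 81.0 CPM in GC and 35.4 to 74.8 CPM in naive libraries. Of these 9 markers 8, 4 and 5 had a count in activated, GC and naive libraries, and Treml1 was at 0 in all. Only 3 of the 9 passed the filter on low counts, so the sum rests on few of these markers. By edgeR, 1 of the 3 was called higher and 2 were not called, against naive and against GC with each stimulus. Their part in the Pros1 level was not tested.

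Lad1 followed the same division with a wider spread. Lad1 (ENSMUSG00000041782, chromosome 1, 135818598 to 135833342, plus strand) had 68.1, 206 and 134 CPM in CD40 libraries A, B and C. It had 73.6, 223 and 134 CPM in the CpG libraries and 86.6, 253 and 143 CPM in the LPS libraries. It had 6 counts in GC C and 0 in the other GC libraries and in the naive ones. Means were 4294, 4523 and 5073 times the naive floor used for Htr7 with CD40, CpG and LPS, likewise not strict bounds. Of 10 thymic epithelial markers, 6 had a count in activated libraries, 3 in GC and 3 in naive libraries, with sums of 6.33 to 22.8, 4.29 to 9.71 and 1.54 to 7.75 CPM. The keratin Krt5 and the factor Foxn1 were at 0 in every library.

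Vdr had no count outside the activated libraries. Vdr (ENSMUSG00000022479, chromosome 15, 97854425 to 97910630, minus strand) had 71.0, 254 and 126 CPM in CD40 libraries A, B and C. The CpG libraries had 80.9, 257 and 139 CPM and the LPS libraries 64.7, 225 and 108 CPM. All 6 GC and naive libraries had 0 counts. Means were 4747, 5016 and 4187 times the naive floor used for Htr7 with CD40, CpG and LPS, likewise not strict bounds.

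Lin28a was a low-level member of the same kind. Lin28a (ENSMUSG00000050966, chromosome 4, 134003330 to 134018841, minus strand) had 13.7, 17.8 and 11.8 CPM in CD40 libraries A, B and C. It had 18.9, 16.2 and 15.6 CPM in the CpG libraries and 13.6, 12.2 and 12.3 CPM in the LPS libraries. It had 8 counts in GC B, 0 in the other GC libraries and 0 in the naive libraries. Its exons overlap those of Gm13061 on the opposite strand over 234 bases, and Gm13061 had 0 counts in all libraries. Means were 455, 533 and 400 times the naive floor used for Htr7 with CD40, CpG and LPS, likewise not strict bounds.

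**Figure D1:**
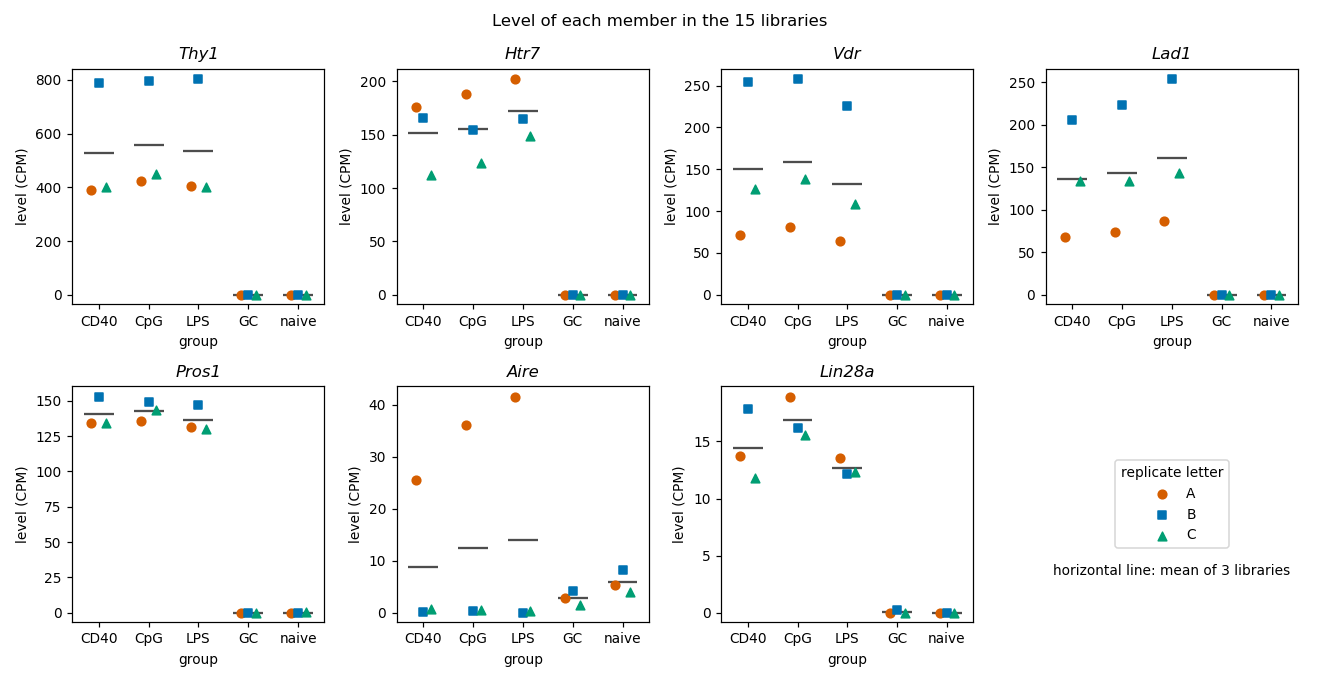
Level of each member in CPM on a linear axis that differs between panels, for the CD40, CpG, LPS, GC and naive groups. Each point is 1 library, its shape and colour the replicate letter, and each line the mean of 3 libraries. The 9 activated libraries lie far above the 6 others for Thy1, Htr7, Vdr, Lad1, Pros1 and Lin28a, while Aire is above naive in the 3 activated libraries of letter A and below it in the other 6.

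Per kilobase of exon, the median over the 9 activated libraries placed Thy1 first at 141 CPM per kb. Htr7 followed at 48.4, Lad1 at 39.5, Pros1 at 33.3 and Vdr at 22.3 CPM per kb. Lin28a had 3.43 and Aire 0.130 CPM per kb, but the Aire range was 0 to 10.8 CPM per kb, and in letter A its mean of 8.99 CPM per kb was above that of Lin28a, 3.85 CPM per kb. The per-kilobase ranges of Htr7 (33.0 to 59.4), Lad1 (20.03 to 74.5), Pros1 (31.8 to 37.3) and Vdr (11.4 to 45.6 CPM per kb) overlapped, so neighbours among these 4 do not differ beyond their spread. The range of Thy1 (130 to 268 CPM per kb) lay above them and that of Lin28a (2.95 to 4.72 CPM per kb) below.

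Aire stood apart from the other 6 members. Aire (ENSMUSG00000000731, chromosome 10, 78030022 to 78043610, minus strand) had 25.6 CPM with CD40, 36.2 CPM with CpG and 41.4 CPM with LPS in the libraries of letter A. In letter B it had 0.191, 0.370 and 0 CPM with CD40, CpG and LPS, and in letter C 0.697, 0.495 and 0.388 CPM. The GC libraries A, B and C had 2.74, 4.15 and 1.52 CPM, and the naive ones 5.39, 8.29 and 3.99 CPM. Every activated library of letter A was above every GC and naive library, and every activated library of letters B and C was below them. In counts, the letter A cultures held 825, 1066 and 1256, the other 6 cultures 0 to 18, the GC libraries 46 to 152 and the naive libraries 115 to 244. A mean over the 3 letters, such as 8.83 ± 14.5 CPM with CD40 (SD, n = 3), therefore describes no library.

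**Figure D2:**
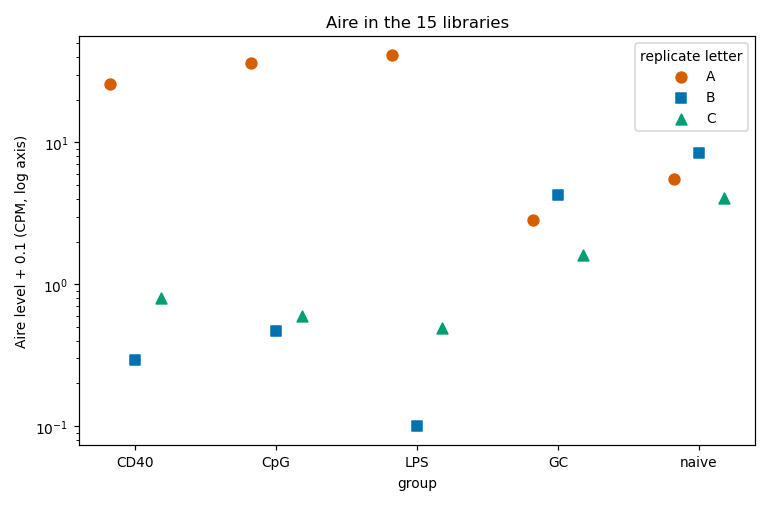
Aire level plus 0.1 CPM on a log axis in the CD40, CpG, LPS, GC and naive libraries. Each point is 1 library, its shape and colour the replicate letter. The 3 activated libraries of letter A sit between 25.6 and 41.4 CPM, the other 6 activated libraries between 0 and 0.697 CPM, and the GC and naive libraries between 1.52 and 8.29 CPM.

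Aire overlaps Dnmt3l on the opposite strand over 67 exonic bases. Dnmt3l, a DNA methyltransferase cofactor of germ cells, had 97 counts in all 15 libraries together, against 4050 for Aire. The library kit kept strand, but the strand setting of the counting is not given in the sources used here, so reads of the overlap cannot be assigned with certainty.

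The GC libraries, which the choice of members did not use, gave a second sorted B cell group to compare with. Of the 7 members, 6 were higher in CD40 than in GC libraries, where 15.9% of 17144 genes tested were called higher by edgeR's quasi-likelihood test at a Benjamini-Hochberg adjusted p below 0.05. The same number was called higher with CpG (16.4% of genes) and with LPS (15.8% of genes). The exception in each was Aire. The activated side of this contrast is the one the members were chosen on, and these 6 passed the filter on low counts only through the activated libraries. Their count is therefore a description, and nothing is read from it against the share of all genes. The 3 contrasts share the GC libraries.

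Thy1 was 4133, 4364 and 4214 times the GC mean with CD40, CpG and LPS, and its edgeR log2 fold change with CD40 was 12.02 ± 1.03 (SE). Lad1 was 2065, 2175 and 2439 times the GC mean, at 11.02 ± 1.02 with CD40 by edgeR (SE). Lin28a was 198, 232 and 174 times the GC mean, at 7.47 ± 0.91 with CD40 by edgeR (SE). These 3 GC means rest on 12, 6 and 8 counts, each in a single library. Without GC A for Thy1, GC C for Lad1 or GC B for Lin28a no GC count is left, and only a fold against a floor could be given.

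Htr7, Vdr and Pros1 had no GC count, so their folds are given against a floor. Means of Htr7 were 4961, 5102 and 5635 times a floor of 3 counts over the GC group with CD40, CpG and LPS. Those of Vdr were 4936, 5215 and 4353 times that floor, and those of Pros1 4603, 4687 and 4471 times. Most low counts were even, as when both mates of a pair are counted, so the floor understates the error. These values are therefore not strict bounds.

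Aire averaged 8.83 ± 14.5 CPM with CD40, 12.3 ± 20.6 CPM with CpG and 13.9 ± 23.8 CPM with LPS, against 2.80 ± 1.32 CPM in GC libraries (SD, n = 3 each). The edgeR log2 fold changes were 1.65, 2.14 and 2.31 with adjusted p of 0.636, 0.533 and 0.499. The sign turned when the letter A library of the stimulus was left out, to -2.71 with CD40, -2.71 with CpG and -3.79 with LPS.

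Between GC and naive cells the members other than Aire were near their floor. Lin28a alone was called higher in GC cells by edgeR (17.9% of genes tested were) and no member lower (16.5% of genes were). Since the members were chosen for naive counts near 0, few could have been called lower, and nothing is read from these counts. The Lin28a call (adjusted p = 0.0455, edgeR) rests on 8 counts in GC B against none in naive libraries. It held in 5 of 20 alternatives, with an adjusted p of 0.0138 to 1, and without GC B neither group had a count. Pros1 had no count in GC libraries against 8 counts in naive C, with an adjusted p of 0.0619 by edgeR and 0.00832 by DESeq2. Aire had 2.80 ± 1.32 CPM in GC and 5.89 ± 2.20 CPM in naive libraries (SD, n = 3 each), with GC B (4.15 CPM) above naive C (3.99 CPM). It did not pass the test (adjusted p = 0.749, edgeR). The fit shares its estimate of the spread over all groups, so the Aire difference between activated letters enters that p. The p therefore does not measure the spread of the GC and naive libraries alone.

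Among the cultures, the letter held more of the variance than the stimulus for 6 of the 7 members, and less for Lin28a. Letter contrasts were fitted in edgeR on the 9 activated libraries with the stimulus as a term, and the choice of members did not use them. A difference between letters was called for 5 of the 7 members, where 44% of 15727 genes tested were called. On the scale of log2 of CPM plus 0.5, the letter held 98.7% of the variance of Thy1 over these libraries, 97.1% of that of Vdr, 97.1% of Lad1, 98.9% of Aire, 81.2% of Htr7, 77.3% of Pros1 and 18.1% of Lin28a. The stimulus held 51.3% for Lin28a and 0.179% to 12.5% for the others. The median over all genes tested was 58.3% for the letter and 10.99% for the stimulus.

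Thy1, Vdr and Lad1 were highest in letter B. Thy1 had 406 ± 17.0 CPM in letter A, 794 ± 7.44 CPM in letter B and 418 ± 27.0 CPM in letter C (SD, n = 3 each). The edgeR log2 difference was -0.97 for A minus B (adjusted p = 3.92e-13) and 0.93 for B minus C (adjusted p = 7.40e-13). Letters A and C differed by -0.04 ± 0.05 (SE), which did not pass the test (adjusted p = 0.669). The 3 letter B libraries, at 787 to 802 CPM, lay apart from the other 6, at 390 to 449 CPM.

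Vdr had 72.2 ± 8.18 CPM in letter A, 246 ± 17.8 CPM in letter B and 124 ± 15.3 CPM in letter C (SD, n = 3 each). Lad1 took the same order, at 76.1 ± 9.49, 227 ± 24.0 and 137 ± 5.02 CPM in letters A, B and C (SD, n = 3 each). By edgeR, A minus B was -1.77 for Vdr (adjusted p = 4.93e-17) and -1.58 for Lad1 (adjusted p = 8.65e-16). The 3 libraries of each letter did not overlap with those of another letter for either gene. The share of all genes with such a separation, here or for Thy1 and Htr7, was not counted. Over all genes tested the letter held a median of 58.3% of the variance, so nothing particular to the members is read from it. A minus C and B minus C also passed the test for both, at -0.79 and 0.98 for Vdr and -0.86 and 0.72 for Lad1.

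Htr7 took another order, with 189 ± 12.9 CPM in letter A, 162 ± 6.005 CPM in letter B and 128 ± 18.9 CPM in letter C (SD, n = 3 each). A minus C was 0.56 (adjusted p = 6.08e-07, edgeR) and B minus C 0.34 (adjusted p = 0.000355, edgeR). The B minus C difference had the same sign as for Thy1, Vdr and Lad1. A minus B was 0.22 (adjusted p = 0.0154, edgeR), a call that was lost without CpG A (adjusted p = 0.0775), without CpG B (0.0903) and without LPS B (0.182). The lowest letter A library, at 176 CPM, was above the highest letter B library, at 166 CPM.

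Aire was far higher in letter A, at 34.4 ± 8.06 CPM, against 0.187 ± 0.185 CPM in letter B and 0.527 ± 0.157 CPM in letter C (SD, n = 3 each). The edgeR log2 difference was 7.44 ± 0.37 for A minus B (SE, adjusted p = 4.60e-13) and 6.04 ± 0.32 for A minus C (SE, adjusted p = 1.61e-12). B minus C was -1.39 with an adjusted p of 0.0474 by edgeR, on 16 against 48 counts, and DESeq2 did not call it (adjusted p = 0.138). That last call also ended without LPS B (adjusted p = 0.209), CD40 C (0.195), CD40 B (0.133), CpG C (0.0825) or CpG A (0.0624). In GC and naive libraries letter B had the highest Aire level, at 4.15 CPM in GC and 8.29 CPM in naive cells.

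Pros1 had 134 ± 2.13, 150 ± 2.66 and 136 ± 7.03 CPM in letters A, B and C (SD, n = 3 each), and did not pass the edgeR test over the 3 letters (adjusted p = 0.0742). Its A minus B difference was -0.16, with an adjusted p of 0.0557 by edgeR and 0.0408 by DESeq2, and without CpG C both tests passed, at 0.0484 for A minus B and 0.0488 over the letters. Lin28a had 15.4 ± 3.01, 15.4 ± 2.92 and 13.2 ± 2.08 CPM (SD, n = 3 each), with an adjusted p of 0.456 by edgeR.

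By direction, A minus B was higher for Htr7 and Aire, where 16.6% of genes were, and lower for Thy1, Vdr and Lad1, where 14.5% of genes were. A minus C was higher for Htr7 and Aire, where 11.9% of genes were, and lower for Vdr and Lad1, where 11.5% of genes were. B minus C was higher for Thy1, Htr7, Vdr and Lad1, where 17.3% of genes were, and lower for Aire, where 17.5% of genes were. Letters may stand for a mouse, a pool or a culture day, which the labels do not say, and these cannot be told apart. Summed plasma cell markers also lay apart between the letters, and summed germinal centre markers between A and the others. Their part in the member differences was not tested.

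**Figure D3:**
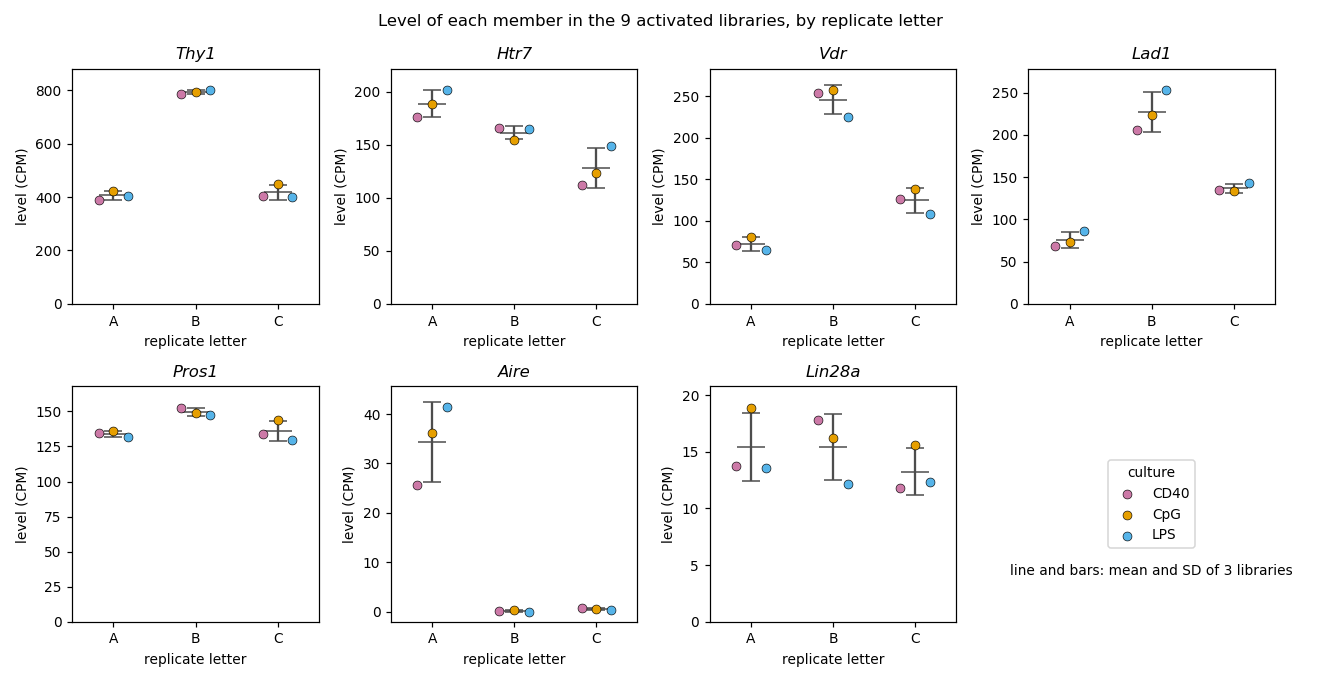
Level of each member in CPM in the 9 activated libraries, by replicate letter, with the colour of a point naming the culture and the line and bars giving the mean and SD of 3 libraries. Vdr and Lad1 are ordered B, C, A and Htr7 A, B, C. Thy1 averages 794 CPM in letter B, 406 CPM in letter A and 418 CPM in letter C, and Aire is above 1 CPM in letter A alone.

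Few differences were called between stimuli. No gene of 17144 was called between the 3 stimuli (0% of genes) by edgeR on all 15 libraries without the letter in the fit. There 63 genes had an unadjusted p below 0.05, and DESeq2 called 1 gene. That is below the share of 0.05 that would be met with no difference at all, as letter differences enter the error of this fit. Its lack of calls therefore does not show that the stimuli were alike. With the letter as a replicate block, a fit on the 9 activated libraries (15727 genes tested) called 79. Since libraries of the same letter deviated together, the blocked fit is given beside the fit without the letter. All 7 members had an adjusted p of 1 without the block. With it, Vdr was higher with CpG than with LPS, by 0.29 ± 0.06 on the log2 scale (SE, adjusted p = 0.0435, edgeR), with 80.9, 257 and 139 CPM in CpG A, B and C against 64.7, 225 and 108 CPM in LPS A, B and C. CpG exceeded LPS in all 3 letters. Over the 3 stimuli together Vdr did not pass the blocked edgeR test (adjusted p = 0.0852).

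Lad1 had -0.24 ± 0.07 for CD40 minus LPS on the log2 scale in the blocked fit (SE, adjusted p = 0.148, edgeR), with CD40 below LPS in all 3 letters. Htr7 had -0.20 ± 0.07 for CD40 minus LPS in the blocked fit (SE, adjusted p = 0.335, edgeR), with LPS above CD40 in letters A and C and just below it in letter B. Lin28a, the member whose variance lay most in the stimulus, had 14.4 ± 3.10 CPM with CD40, 16.9 ± 1.74 CPM with CpG and 12.7 ± 0.782 CPM with LPS (SD, n = 3 each). Its CpG minus LPS difference in the blocked fit was 0.41 ± 0.16 (SE, adjusted p = 0.546, edgeR). Thy1 and Pros1 differed by at most 0.10 on the log2 scale between any 2 stimuli in the blocked fit, with SEs of 0.05 and 0.06.

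Genes that work with the members were read from 13 lists, each by counts called against naive in all 3 activated groups. Over all genes tested by edgeR, 17.5% were called higher in all 3 and 12% lower in all 3, and the median log2 fold change was 0.17, 0.18 and 0.18 with CD40, CpG and LPS. All 3 contrasts share the naive libraries. A fit with naive C as the only naive library was added after seeing the data, where 11.5% of genes tested were higher in all 3 and 9.96% lower. The list counts and the calls of named genes that it changed are given beside the list, and a gene named as gained there was chosen after its values were seen.

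Around Thy1, 2 of 13 T cell markers tested were higher and 2 lower in all 3 groups, with list medians of -0.77, -0.20 and 0.31 with CD40, CpG and LPS. Cd8a and the co-stimulatory receptor Cd28 were higher, and the adhesion molecule Cd2 and the kinase Lck were lower. Cd2 had 18.3, 17.1 and 13.5 CPM in CD40, CpG and LPS cultures, against 221 CPM in naive libraries. On naive C alone the Cd28 and Lck calls were lost and Tcf7 was gained as higher. Of 12 small GPI-anchored and lymphocyte surface genes, 2 were higher and 2 lower, with list medians of 0.72, 0.67 and 0.66. Sema7a, a GPI-anchored semaphorin, had 119, 111 and 122 CPM in CD40, CpG and LPS cultures, against 19.1 CPM in naive libraries. Ly6d, also GPI-anchored, had 48.5, 60.3 and 51.7 CPM against 606 CPM in naive libraries. Cd48 was higher and Ly6e lower, and the calls of Ly6d and Cd48 were lost on naive C alone.

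The serotonin genes around Htr7 were largely silent. Of 19 receptor, synthesis, uptake and breakdown genes, 1 passed the filter on low counts, the breakdown enzyme Maoa, with 2.32, 1.097 and 1.57 CPM in CD40, CpG and LPS cultures, against 0.0694 CPM in naive libraries, a call lost on naive C alone. Tph1, which starts serotonin synthesis, did not exceed 0.222 CPM in any activated library, Htr2a did not exceed 0.204 CPM, and Htr1b had no count. Among 21 genes of the stimulatory G protein and cyclic AMP, 5 were higher and 6 lower in all 3 groups, with list medians of 0.46, 0.33 and 0.39, and on naive C alone 2 were higher and 6 lower. Crem, a cyclic AMP-responsive transcription factor, had 131, 143 and 147 CPM in CD40, CpG and LPS cultures, against 7.27 CPM in naive libraries. Rapgef4, a cyclic AMP-activated exchange factor, had 0.749, 0.542 and 0.855 CPM against 57.2 CPM in naive libraries. Rapgef3, its relative, was higher, a call lost on naive C alone, and the stimulatory G protein subunit Gnal was lower.

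Around Pros1, 2 of 5 genes of the TAM receptor list were higher in all 3 groups and none lower (list medians 2.23, 1.43 and 2.16). The receptor Tyro3 had 13.6, 15.6 and 15.9 CPM in CD40, CpG and LPS cultures, against 0.467 CPM in GC and 0.0462 CPM in naive libraries. The other was Lgals3, a galectin that binds Mertk, with 102, 109 and 97.6 CPM with CD40, CpG and LPS, 0.0212 CPM in GC and 21.8 CPM in naive libraries. Axl had 5.85, 4.47 and 4.89 CPM with CD40, CpG and LPS, 0.170 CPM in GC and 2.41 CPM in naive libraries, and did not pass the test against naive (adjusted p of 0.470, 0.625 and 0.570, edgeR). Mertk was at or under 0.649 CPM in every activated library, and the other ligand Gas6 at or under 0.666 CPM. Of 8 genes of the protein C pathway and vitamin K cycle, 3 were higher and none lower (list medians 0.69, 0.81 and 0.98): the thrombin receptor F2r, the coagulation factor F8 and the protein C receptor Procr. All 3 were below 3 CPM in every activated library, and the F2r and Procr calls were lost on naive C alone, which left 1.

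Among the epithelial anchoring and junction genes around Lad1, 1 of 14 was higher and 1 lower in all 3 groups (list medians -0.04, 0.14 and -0.13). The cadherin Cdh1 had 1.34, 1.65 and 2.11 CPM in CD40, CpG and LPS cultures, against 0 counts in naive libraries, a call lost on naive C alone, where Dst was gained as higher. Sfn was lower. Col17a1, a collagen of hemidesmosomes, did not exceed 0.148 CPM in any activated library. Epcam, an epithelial adhesion molecule, had 5.75, 6.99 and 3.44 CPM with CD40, CpG and LPS, 3.74 CPM in GC and 4.39 CPM in naive libraries.

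Vitamin D partners did not move together. Of 11 partner and metabolism genes, 1 was higher and 3 lower in all 3 groups (list medians -0.30, -0.43 and -0.41). The retinoid X receptor Rxra had 11.7, 8.66 and 7.25 CPM with CD40, CpG and LPS, 0.136 CPM in GC and 0.555 CPM in naive libraries, and passed the edgeR test against naive with CD40 (adjusted p = 0.0438) and not with CpG (0.0624) or LPS (0.0760). By letter it had 3.50, 16.7 and 7.41 CPM in A, B and C, the same order as Vdr, and the share of all genes in that order was not counted. The coactivator Ncoa3 was higher, a call lost on naive C alone. The hydroxylase Cyp27a1 had 0.269, 0.278 and 0.671 CPM against 54.0 CPM in naive libraries, and Cyp2r1 (lost on naive C alone) and the coactivator Ncoa1 were also lower. Cyp24a1, which breaks down vitamin D and is a known target of the receptor, had 0 counts in all 15 libraries, and Cyp27b1 was at or under 0.649 CPM in the activated ones.

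Of 9 known vitamin D response genes tested, 6 were higher and 1 lower in all 3 groups (list medians 4.42, 4.79 and 4.57). The cell cycle inhibitor Cdkn1a had 174, 165 and 172 CPM in CD40, CpG and LPS cultures, against 0.766 CPM in naive libraries. Spp1 (osteopontin) had 5.79, 7.66 and 5.54 CPM, the chemokine receptor Ccr10 1.83, 2.08 and 1.93 CPM, and the cytokine Tnfsf11 1.45, 1.83 and 2.14 CPM with CD40, CpG and LPS, each with 0 counts in naive libraries. On naive C alone, 5 were higher and 1 lower of 10 tested. As background, these genes also answer to other signals. By letter Cdkn1a had 191, 203 and 118 CPM in A, B and C, and Ccr10 1.497, 0.386 and 3.96 CPM, orders unlike that of Vdr. Spp1 had 2.60, 9.11 and 7.27 CPM and Tnfsf11 1.03, 2.61 and 1.78 CPM in A, B and C, the same order as Vdr. The share of all genes in that order was not counted, and the other called genes of the list were not read by letter. A link of these genes to Vdr was not tested.

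Partners and inducers of Aire showed 4 of 20 genes higher and 7 lower in all 3 groups (list medians 0.06, 0.19 and 0.15), and on naive C alone 3 were higher and 3 lower. Higher were Tnfsf11, the ligand that induces Aire in thymic epithelium, the receptor Ltbr (lost on naive C alone) and the topoisomerase Top2a, which had 501, 496 and 471 CPM in CD40, CpG and LPS cultures, against 11.7 CPM in naive libraries. Sirt1, a deacetylase that activates Aire, was lower. The receptor Cd40 had 95.7, 95.5 and 97.2 CPM with CD40, CpG and LPS, 88.6 CPM in GC and 201 CPM in naive libraries. Tnfrsf11a, the receptor of Tnfsf11, did not exceed 0.621 CPM in any activated library and had no count in GC or naive ones. Of 21 Aire-dependent antigens of thymic epithelium, 5 passed the filter and none was called in all 3 groups in either direction. With CpG 1 of the 5 was called higher. Each activated group mixes letter A, where Aire was high, with letters B and C. These contrasts therefore cannot show whether the antigens followed Aire, and the list was not compared between letters. Their medians were 4.43, 4.51 and 4.14, or 2.87, 2.84 and 3.35 with genes at 0 in naive libraries set to the naive floor used for Htr7. Ins2 had no count in any library, also not in letter A, where Aire was high, and Fezf2 did not exceed 0.0739 CPM.

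Around Lin28a, 8 of 17 genes of let-7 processing and let-7 targets were higher and 3 lower in all 3 groups (list medians 0.31, 0.39 and 0.44). In GC libraries, which had 8 counts of Lin28a, 10 of the 17 were higher and 3 lower than in naive ones (list median 0.70). Of all genes tested, 17.9% were higher and 16.5% lower in GC libraries. Against GC, the list medians were -0.19, -0.23 and -0.15 with CD40, CpG and LPS. A link of the list to Lin28a was not tested. The cyclin Ccnd2 had 572, 568 and 511 CPM in CD40, CpG and LPS cultures, against 32.8 CPM in naive libraries, and the factor Arid3a 170, 158 and 156 CPM against 33.8 CPM. The RNA-binding genes Igf2bp2 and Igf2bp3 were higher at low levels, up to 2.705 and 2.79 CPM in the highest activated library, and the Igf2bp3 call was lost on naive C alone, where 7 genes were higher and 2 lower. Lin28b, the close relative of Lin28a, had 0 counts in all 15 libraries, and Hmga2 did not exceed 0.0637 CPM. Of 20 pluripotency genes, 4 passed the filter, none was higher and 2 were lower (list medians -3.36, -3.57 and -4.83). Klf4 had 1.77, 1.79 and 2.05 CPM in CD40, CpG and LPS cultures, against 132 CPM in naive libraries, and Klf2 95.5, 105 and 93.9 CPM against 1179 CPM. Nanog had no count in any library and Pou5f1 none in the activated ones.

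**Figure D4:**
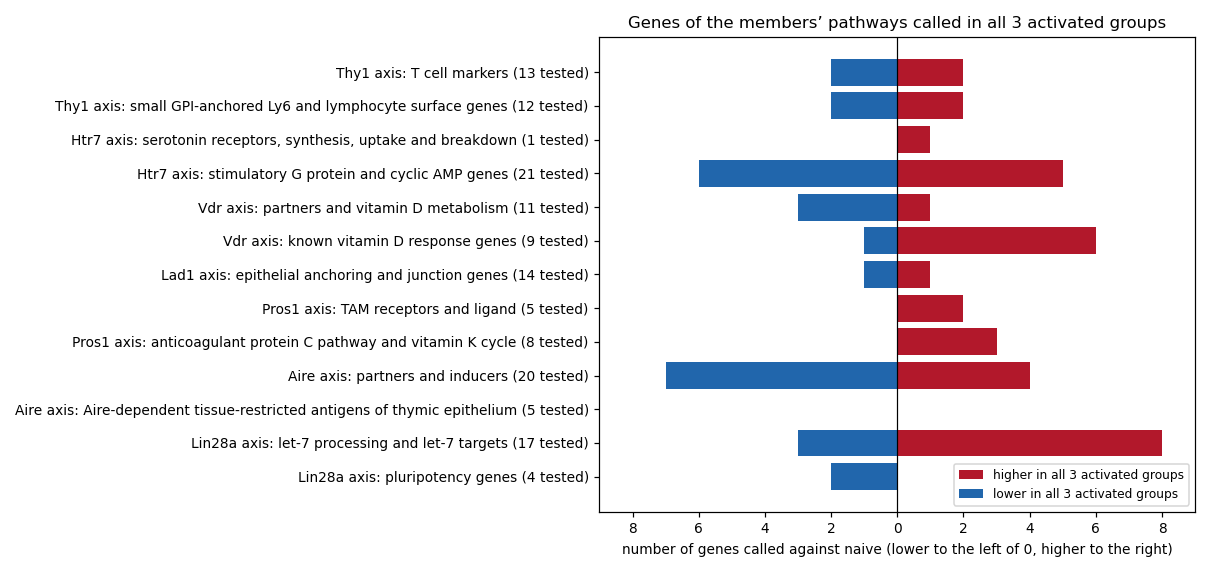
Number of genes of each list called by edgeR against naive in all 3 activated groups, higher to the right of 0 and lower to the left, with the number of genes tested in brackets. Let-7 genes have 8 higher and 3 lower of 17, vitamin D response genes 6 higher and 1 lower of 9, and the Aire-dependent antigens none.

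The genes with the most similar levels to each member were found by Pearson correlation of log2 CPM with a prior count of 2. Over all 15 libraries the correlation mainly measures the step between the activated libraries and the others, which the members were chosen for. Zfp683, a transcription factor of tissue-resident lymphocytes, was the nearest to Vdr (r = 0.9998), with 6.70 to 19.7 CPM in activated libraries and 0 counts in the others. Insm1 and Ptgir followed it for Vdr, and Zfp683 and Insm1 also stood next to Lad1, after Mapt (r = 0.996). Spsb1 was the nearest to Thy1 (r = 0.997), before Olfm1 and Gdpd1, and to Pros1 (r = 0.998), before Phlda3 and Ero1l. Gm37795, Cd96 and Oit3 were the nearest to Htr7 (r = 0.999 each), and Gm20139 (r = 0.999), Msrb3 and Gm32255 to Lin28a. For Aire the nearest were Zc3h12d (r = 0.886), Cd300lf and Zfp326.

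Over the 9 activated libraries, where the points share letters, Thy1 was nearest to Eef2k (r = 0.996) and to the transcription factor Bhlhe40 (r = 0.994), which had 41.0, 167 and 44.5 CPM in letters A, B and C. Vdr was nearest to Tbrg1 (r = 0.998) and to the AP-1 factor Fosl2 (r = 0.993), with 16.8, 133 and 36.6 CPM of Fosl2 in letters A, B and C. Lad1 was nearest to Rabgap1l (r = 0.994) and Mir155hg, the host gene of miR-155 (r = 0.991), with 13.1, 95.8 and 35.8 CPM of Mir155hg in letters A, B and C. The third nearest were Prelid1 for Thy1, Zfp683 for Vdr and Eif3m for Lad1. Htr7 was nearest to Shf (r = 0.978), Dgkd and Ercc6l2, and Pros1 to Trim36 (r = 0.979), Rabac1 and Gm47593. Lin28a was nearest to Fes (r = 0.958), Rbbp4 and Gm20519, and Aire to Cerk (r = 0.989), Fmnl2 (r = 0.988) and Plekhm2. Gm20519 did not exceed 0.373 CPM in any activated library, a level of few counts, so little is read from its place.

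Among the members themselves over these 9 libraries, Vdr and Lad1 were the closest pair (r = 0.946), followed by Thy1 and Pros1 (r = 0.912) and Thy1 and Vdr (r = 0.905). Aire ran against Lad1 (r = -0.939) and Vdr (r = -0.875). Htr7 showed almost no relation to Thy1 (r = 0.0751). These values describe 9 libraries in 3 letters, so each rests on few independent points.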

How the data were processed

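The authors deposited raw read counts per Ensembl gene (54838 IDs) for 15 libraries. Poly(A) RNA was sequenced with a directional kit per the labels' protocols, and the submitters' processing notes name STAR 2.7.10a, featureCounts 2.0.6, DESeq2 and the builds mm10 and GRCm38. The annotation release, strand setting and handling of multi-mapped reads are not given in the sources used here. Of counts between 1 and 19, 71.4% to 83.1% were even in each library, as when both mates of a pair are counted, so counting floors understate the error, and floors cover counting error only. Names and lengths came from GENCODE M21 (54723 IDs matched) and promoters from RefSeq (GRCm38.p6).

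Genes were filtered with filterByExpr, scaled by TMM and tested with edgeR 4.0.16 (R 4.3.3, robust quasi-likelihood, 2-sided, Benjamini-Hochberg over all genes tested, threshold 0.05). Group contrasts used all 15 libraries (17144 genes) and letter contrasts the 9 activated ones (15727 genes). Stimulus contrasts used those 9 libraries (15727 genes) in 2 alternatives, the replicate block and only the groups compared. DESeq2 1.42.0, DESeq2 size factors in edgeR, no filter, the letter as a replicate block, only the groups compared, each library left out in turn, raw library totals and another prior count were tried. The fit was tested on simulated data. Figures were drawn with matplotlib.

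Same-lettered activated libraries deviated together (r = 0.362 to 0.495 over 9 pairs, deviations from group means), so letters pair them. Pairs with GC or naive libraries did not (-0.0696 to 0.0752, 21 pairs).

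Members and lists were chosen with earlier results of these data known. Named genes are the 7 members and, for each, the 3 genes nearest in log2 CPM. Also named are up to 4 genes per list called the same way in all 3 comparisons with naive, with the largest mean fold change. A fixed set of partners is named too. Some T cell markers given by library, such as Tcf7 and Trbc2, are outside this rule.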

Additional observations from a re-analysis of the deposited data

How the results depend on the processing

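Against GC, the edgeR calls of Thy1, Htr7, Vdr, Lad1, Pros1 and Lin28a held in all 21 alternatives run for each, but the choice of members largely fixed these calls. Fitting only the groups compared lowered the genes called against naive to 3005 with CD40, 3137 with CpG and 3349 with LPS, against 5849, 5768 and 5779 in the fit on all libraries. The same setting raised those called against GC to 6519, 6836 and 6880, against 4865, 4958 and 4809, and the cause was not tested. Leaving out 1 library moved no count of called genes by over 1.5 times. Between stimuli, where no gene was called, the paired fit with the letter as a replicate block called 27 (CD40 minus CpG), 44 (CD40 minus LPS), 45 (CpG minus LPS) and 79 genes (any stimulus). Fitting only the 9 activated libraries without the block called 2 (CD40 minus CpG) and 3 (CD40 minus LPS). Using no low-count filter called 1 (CpG minus LPS), and DESeq2 1 (CpG minus LPS) and 1 (any stimulus). Apart from the Vdr difference between CpG and LPS, the block ended the Lin28a call between GC and naive (adjusted p = 0.0651, edgeR) and changed no other call of a member.

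Signs turned for differences that did not pass the test. Aire minus GC was -1.63, -1.40 and -1.57 with CD40, CpG and LPS under the block, and ranged over -2.71 to 2.18, -2.71 to 2.66 and -3.79 to 2.85 with 1 library left out. Thy1 in GC minus naive ranged over -4.41 to 5.01 with 1 library left out and was -1.15 with naive C as the only naive library, an alternative chosen after seeing the data. Pros1 in A minus C ranged over -0.040 to 0.017 and Lin28a in A minus B over -0.11 to 0.19. The cause of these turns was not tested. Of 3 nearest genes, a prior count of 0.5 kept 1 to 3. Depth limits Aire in letters B and C and all GC and naive levels of the other members.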
